A study of Mus musculus with 6 samples.

Results

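The genes described here are 33 genes of the lysosome, namely hydrolases, their activator proteins, lipid transfer proteins and membrane proteins, with the cathepsins left out. They were taken by symbol from a deposited table of 55298 gene identifiers, and all 33 were found and passed the filter on low values. Each sample is RNA of cells captured from mouse brain with magnetic beads carrying the O4 antibody, which binds late oligodendrocyte precursors and oligodendrocytes. All mice were of the strain labelled c56Bl/6j and carried no other genetic change named in the labels, and the cells were not cultured. The comparison bears on how these cells change during autoimmune neuroinflammation. The EAE group, mice immunised with MOG 35-55, a myelin oligodendrocyte glycoprotein peptide that induces experimental autoimmune encephalomyelitis (EAE), comprised 3 samples, each a pool of RNA from 2 mice. The OVA group, mice given ovalbumin, comprised 3 samples, of which replicate 2 pooled 2 mice and replicates 1 and 3 held 1 mouse each. EAE mice were followed to the peak of disease, and neither the age nor the sex of any mouse is given in the labels. Because pools average over mice, the spread seen here can be narrower than that of individual animals.

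Lysosomes are acidic organelles in which hydrolases break down lipids, glycans and proteins that arrive by endocytosis, phagocytosis or autophagy. Most of the soluble enzymes are carried there by mannose phosphate tags, while heavily glycosylated membrane proteins line the organelle, and transporters and lipid transfer proteins return the products to the cell. In brain, inherited loss of many of these genes causes storage disease, several with loss of myelin, and phagocytes that clear myelin depend on the same enzymes.

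Values are regularised logarithms (rlog) of scaled read counts on a log2 scale, where 1 unit is a doubling. The depth of the samples is unknown, since the table holds no counts. Defining markers of the labelled cell type were present. The oligodendrocyte gene Mbp, myelin basic protein, lay between 16.87 and 17.73 in the 6 samples. Markers of other cells were also detected, with 0 genes of any marker list at 0 in every sample. A value other than 0 needs few reads and does not by itself show that a cell type was present. Summed over 10 general myeloid markers, the log2 level was 15.18 to 15.23 in EAE and 14.62 to 14.86 in OVA, and 6 of the 10 rose, where 1.72% of all tested genes were called higher and 0.666% lower. That count was 1, 0 and 3 without EAE replicate 1, 2 or 3, and 2, 0 and 9 without OVA replicate 1, 2 or 3. With 1 sample left out, 0.132% to 4.68% of all tested genes were called higher. Of the 10 myeloid markers, Aif1, a marker of microglia and macrophages, rose by 0.66 (limma adjusted p = 0.010). Ptprc, the pan-leukocyte CD45, differed by 0.43 (limma adjusted p = 0.25). Over 10 markers of infiltrating monocytes and macrophages it was 14.92 to 15.42 in EAE and 13.16 to 14.66 in OVA, with OVA replicate 3 at the top of its group, and 2 of the 10 rose (0 to 8 with 1 sample left out). Over 10 markers of homeostatic microglia it was 14.43 to 14.87 in EAE and 14.87 to 15.18 in OVA, and 2 of the 10 fell (0 to 4 with 1 sample left out), among them P2ry12, a purine receptor of resting microglia (-1.02; limma adjusted p = 0.034). Over 9 T cell markers the level was 9.19 to 9.40 in EAE and 8.50 to 8.77 in OVA, and 5 rose (1 to 8 with 1 sample left out). Over 8 astrocyte markers it was 15.92 to 16.23 in EAE and 16.70 to 17.03 in OVA, where 5 fell (0 to 5 with 1 sample left out) and 1 rose. Over 8 endothelial markers it was 15.32 to 15.87 in EAE and 15.78 to 16.53 in OVA, and 0 passed the limma threshold. At an unadjusted p under 0.05, 4 of them were lower. Of all tested genes, 9.17% were higher and 7.15% lower at that level. Over 6 markers of pericytes and smooth muscle 0 passed as well (2 lower at an unadjusted p under 0.05), as over 7 of neurons (1 higher). Over 6 markers of oligodendrocyte precursors it was 14.82 to 14.96 in EAE and 14.54 to 15.02 in OVA, with a median difference of 0.18. Of these 2 fell (0 to 2 with 1 sample left out), and at an unadjusted p under 0.05 2 were higher and 2 lower. Over 11 oligodendrocyte markers the level was 20.23 to 20.39 in EAE and 19.86 to 20.30 in OVA and 0 passed (1 higher at an unadjusted p under 0.05); Mog differed by 0.17 and Sox10 by 0.37 (limma adjusted p = 0.55 and 0.31). In bulk samples, more cells of a type and more RNA per cell cannot be told apart, and the part of these shifts in the results below was not tested.

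Of the 33 lysosomal genes, 6 rose in the EAE samples and 0 fell. The 6 were Cd68, Grn, Npc2, Naglu, Gusb and Hexa, with increases between 1.37-fold and 2.30-fold. Calls are limma tests across all 18161 tested genes, two-sided, with Benjamini-Hochberg adjustment and a threshold of 0.05. The 6 are 18.2% of the list, where 1.72% of all tested genes were called higher in EAE. The list was chosen with earlier results of these data known, so such shares describe it and test nothing. Called lower were 0 of the 33, beside 0.666% of all tested genes. At an unadjusted p under 0.05, 14 of the 33 were higher (42.4%, against 9.17% of all tested genes) and 0 were lower (against 7.15%). The 3 EAE values lay above all 3 OVA values for 16 genes (48.5%, against 12.1% of all tested genes) and below them for 0 (against 10.8%), and the groups overlapped for the other 17. The differences had a median of 0.15 on the log2 scale, beside 0.00 over all tested genes, and ranged from -0.14 to 1.20, with 27 above 0 and 6 below (49.3% of all tested genes lay above 0).

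**Figure D1:**
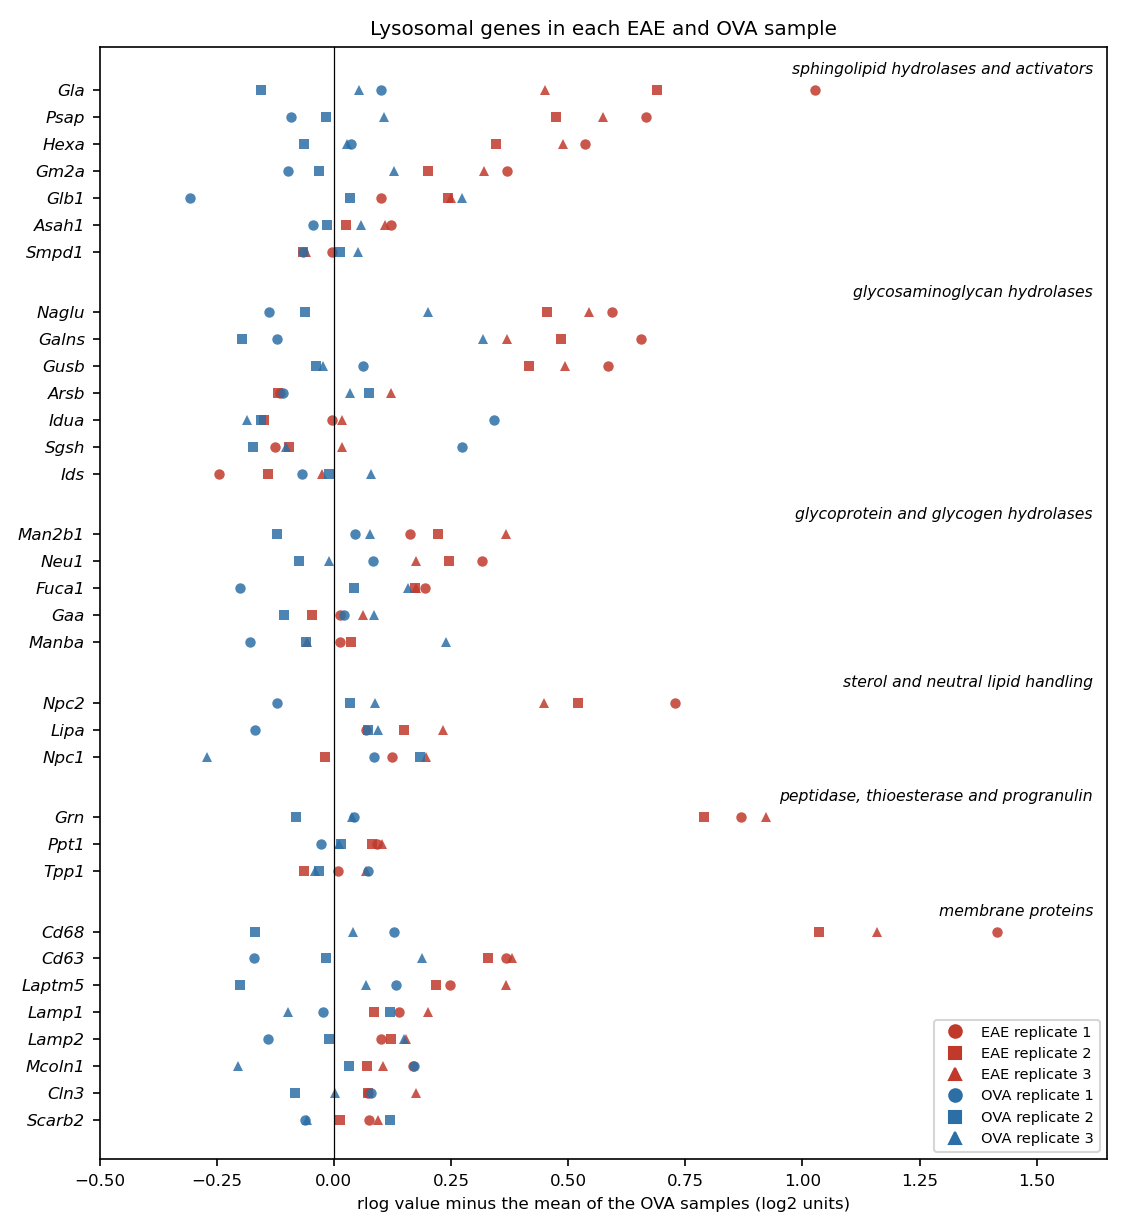
Each row is 1 of the 33 lysosomal genes, grouped by role; the horizontal axis gives the rlog value of each sample minus the mean of the 3 OVA samples, in log2 units, with EAE samples in red and OVA samples in blue and 1 symbol per replicate. In Cd68 and Grn the red symbols stand far to the right of the blue ones, with gaps of 0.91 and 0.75 between the lowest EAE and the highest OVA sample, whereas red and blue mix in genes such as Gaa, Tpp1 and Manba.

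The list did not move as a block. Of 7 genes of sphingolipid breakdown 1 rose, of 7 glycosaminoglycan hydrolases 2, of 5 glycoprotein and glycogen hydrolases 0, of 3 genes of sterol and neutral lipid handling 1, of the 3 formed by a peptidase, a thioesterase and progranulin 1, and of 8 membrane proteins 1. Median differences of these groups ran from -0.04 for the glycosaminoglycan hydrolases to 0.30 for the sphingolipid genes. For 19 of the 33 genes the difference was smaller than 0.2 in either direction. Of the 27 genes that did not pass the test, 21 had a 95% interval wholly between -0.5 and 0.5, so a change of more than 1.5-fold lies outside the interval of each of those genes.

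**Figure D2:**
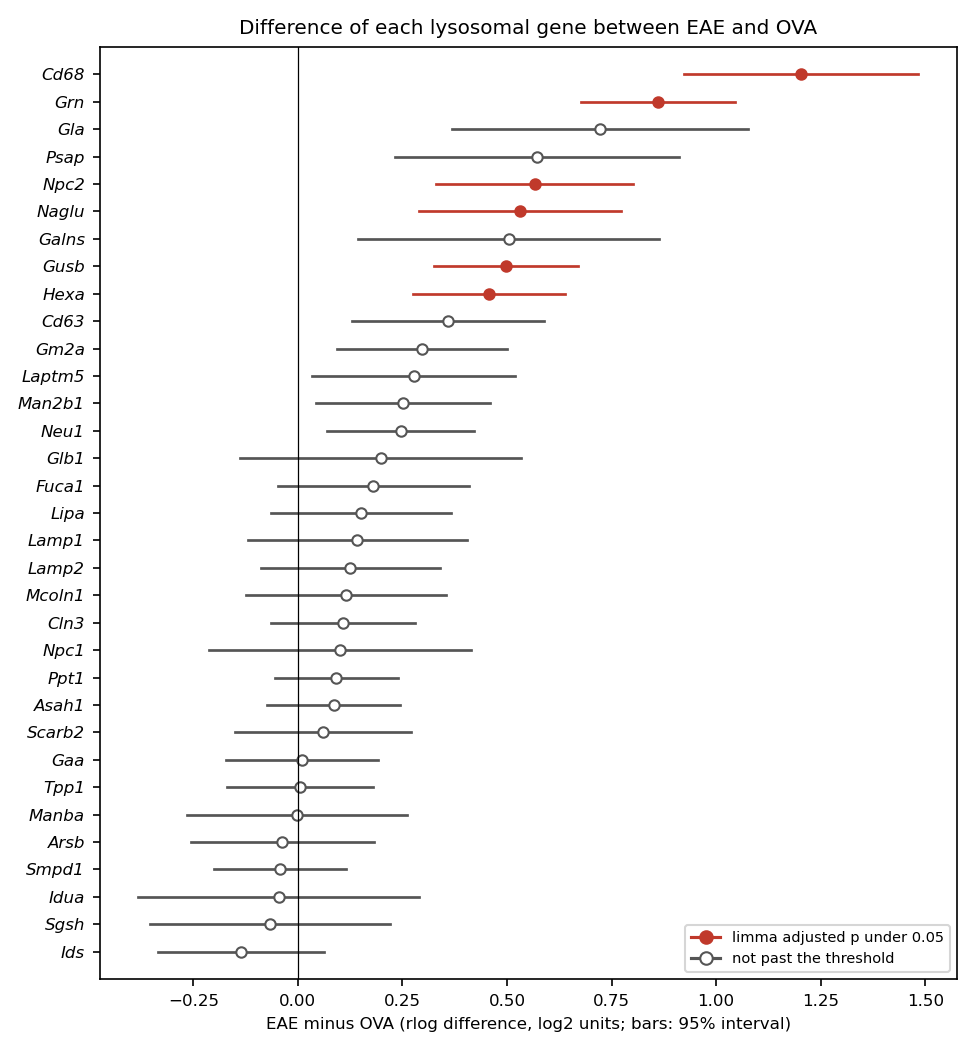
Points give the EAE minus OVA difference of each lysosomal gene in rlog (log2) units and bars its 95% interval from the limma fit, with filled red points for an adjusted p under 0.05. Cd68 stands at the top at 1.20 and Ids at the bottom at -0.14. The intervals of 8 genes that did not pass the adjusted threshold, among them Gla and Psap, also lie above 0.

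Among the membrane proteins, Cd68 (ENSMUSG00000018774.13, chromosome 11, 69664213 to 69666153 on GRCm38), a glycosylated lysosomal and endosomal protein of macrophages and microglia, stood at 11.52, 11.15 and 11.27 in EAE replicates 1 to 3. In OVA it stood at 10.24, 9.94 and 10.15. The lowest EAE sample thus lay well above the highest OVA sample. The difference was 1.20 ± 0.12 (SE), a 2.30-fold rise (limma adjusted p = 0.0073), and Cd68 was the 1 member of the list to exceed 2-fold. Laptm5, a lysosomal membrane protein of haematopoietic cells, differed less, by 0.28 ± 0.10 (SE; limma adjusted p = 0.24), with EAE samples at 12.71 to 12.86 and OVA samples at 12.29 to 12.63. The groups did not overlap there. Cd63, a tetraspanin of late endosomes, lysosomes and exosomes, stood at 12.22 to 12.27 in EAE and 11.72 to 12.08 in OVA, again without overlap, and differed by 0.36 ± 0.10 (SE; limma adjusted p = 0.12).

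The general structural proteins of the membrane differed little. Lamp1, the most abundant lysosomal membrane glycoprotein, had values of 14.97 to 15.08 in EAE and 14.79 to 15.00 in OVA, and its difference of 0.14 had a 95% interval from -0.12 to 0.40. Scarb2, the receptor that carries glucocerebrosidase to the lysosome, differed by 0.06 (-0.15 to 0.27). Mcoln1, a calcium-permeable channel, differed by 0.12 (-0.12 to 0.35), and Cln3, the protein lost in juvenile neuronal ceroid lipofuscinosis, by 0.11 (-0.07 to 0.28). In all of these the samples of the groups overlapped.

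Grn (ENSMUSG00000034708.11, chromosome 11, 102430315 to 102437048) encodes progranulin, a secreted and lysosomal glycoprotein that microglia make in quantity and whose fragments act in the lysosome. It stood at 13.34, 13.26 and 13.39 in EAE and at 12.51, 12.39 and 12.51 in OVA. Within each group the samples lay close together, with SDs of 0.07 and 0.07 (n = 3 each), and the groups were far apart. The rise of 0.86 ± 0.08 (SE) was 1.82-fold (limma adjusted p = 0.0054). The 2 enzymes grouped with it behaved otherwise. Tpp1, tripeptidyl peptidase, differed by 0.00 with a 95% interval from -0.17 to 0.18, and Ppt1, the thioesterase that removes palmitate from proteins, by 0.09 (-0.06 to 0.24), although its 3 EAE samples (12.18 to 12.20) all lay above its OVA samples (12.07 to 12.11).

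Sterols leave the lysosome through a pair of proteins, of which Npc2 binds cholesterol in the lumen and hands it to Npc1 in the membrane. Npc2 (ENSMUSG00000021242.9, chromosome 12, 84754562 to 84773152) stood at 13.27, 13.06 and 12.99 in EAE and at 12.42, 12.57 and 12.63 in OVA. It rose 1.48-fold, by 0.57 ± 0.10 (SE; limma adjusted p = 0.036). Npc1 stood at 13.64 to 13.85 in EAE and 13.39 to 13.84 in OVA, overlapping throughout, and differed by 0.10 (95% interval from -0.21 to 0.41). Whether the 2 genes differ from each other in their response was not tested, and their 95% intervals overlap. Lipa, the acid lipase that frees cholesterol from its esters, differed by 0.15 (-0.06 to 0.37).

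In the breakdown of sphingolipids, Hexa (ENSMUSG00000025232.8, chromosome 9, 59539540 to 59565109), the alpha subunit of beta-hexosaminidase, stood at 12.15, 11.95 and 12.10 in EAE and at 11.64, 11.55 and 11.64 in OVA. It rose 1.37-fold, by 0.46 ± 0.08 (SE; limma adjusted p = 0.031). Gm2a, the activator that presents GM2 ganglioside to the enzyme, stood at 12.170, 12.001 and 12.120 in EAE and at 11.70, 11.77 and 11.93 in OVA. Its groups did not overlap, but the difference of 0.30 ± 0.09 (SE) had a limma adjusted p of 0.14.

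Psap, the precursor of the saposins that activate several sphingolipid hydrolases, was the most abundant of the 33 when each rlog value was set per length. That is, the log2 of the exon length in kb was subtracted from each value. The length covers all annotated exons of a gene, so it can exceed that of the main transcript, and ranks depend on this choice. On that scale Psap was at 14.30 in OVA, followed by Lamp1 at 13.46 and Scarb2 at 11.06, and the lowest was Galns at 6.61. Psap stood at 16.42, 16.23 and 16.33 in EAE and at 15.67, 15.74 and 15.87 in OVA, without overlap. The difference of 0.57 ± 0.15 (SE) did not pass the adjusted threshold (limma adjusted p = 0.10). It did pass without an intensity trend in the test (0.027), with all genes not at 0 in every sample tested (0.023) and without OVA replicate 3 (0.021). The other enzymes of the group lay nearer 0. Asah1, acid ceramidase, differed by 0.09 (95% interval from -0.07 to 0.24), and Smpd1, acid sphingomyelinase, by -0.04 (-0.20 to 0.11). Glb1, the beta-galactosidase of GM1 ganglioside and keratan sulfate, differed by 0.20 (-0.14 to 0.53), and OVA replicate 1, at 9.31, was its lowest sample; it overlaps the gene Tmppe on the same strand, so its reads may not all be its own.

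The glycosaminoglycan hydrolases split. Gusb (ENSMUSG00000025534.17, chromosome 5, 129989011 to 130003049), beta-glucuronidase, stood at 11.18, 11.00 and 11.08 in EAE and at 10.65, 10.55 and 10.57 in OVA, and rose 1.41-fold, by 0.50 ± 0.07 (SE; limma adjusted p = 0.021). Naglu (ENSMUSG00000001751.9, chromosome 11, 101070012 to 101077672), a glucosaminidase of heparan sulfate breakdown, stood at 10.16, 10.02 and 10.11 in EAE and at 9.42, 9.50 and 9.76 in OVA. It rose 1.44-fold, by 0.53 ± 0.10 (SE), at a limma adjusted p of 0.047. It missed the threshold when all genes not at 0 in every sample were tested (0.065) or without an intensity trend (0.053). Galns, a sulfatase of keratan and chondroitin sulfate, differed by as much, 0.50 ± 0.15 (SE), but its samples were more spread, at 8.67, 8.50 and 8.38 in EAE and 7.89, 7.82 and 8.33 in OVA (limma adjusted p = 0.16). The remaining 4 lay between -0.14 and -0.04. They were Ids, Sgsh and Idua, which act on heparan sulfate, and Arsb, a sulfatase of dermatan sulfate, with 95% intervals reaching no lower than -0.38 and no higher than 0.29. Sgsh and Idua were both highest in OVA replicate 1, at 10.46 and 10.73, and without that sample their differences were 0.07 and 0.13.

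Of the enzymes that trim glycoproteins and glycogen, 0 passed the threshold. At an unadjusted p under 0.05, 2 of the 5 were higher, beside 9.17% of all tested genes. Neu1, the sialidase, stood at 10.89, 10.82 and 10.75 in EAE and at 10.66, 10.50 and 10.56 in OVA, without overlap (difference 0.25 ± 0.08, SE; limma adjusted p = 0.16). Man2b1, the alpha-mannosidase, stood at 12.38 to 12.59 and 12.10 to 12.30 (0.25 ± 0.09, SE; limma adjusted p = 0.22). Fuca1, the fucosidase, also had all EAE samples above the OVA samples, by a margin of 0.02, and differed by 0.18. Gaa, the acid glucosidase of glycogen, differed by 0.01 (95% interval from -0.17 to 0.19) and Manba, the beta-mannosidase, by 0.00 (-0.27 to 0.26).

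Gla, Lamp2 and Ids are X-linked, and the groups differed in transcripts that tell the sexes apart. Xist, the RNA that silences an X chromosome, stood at 13.51 to 14.16 in EAE and 7.39 to 7.63 in OVA. The Y-linked Ddx3y stood at 9.44 to 10.18 in EAE and 11.29 to 11.46 in OVA. Each EAE sample, a pool of 2 mice, thus held Ddx3y well above the filter together with high Xist. The sex of the pooled mice is not given. An effect of sex and one of EAE cannot be told apart, in these genes or in the others. Gla, alpha-galactosidase A, which removes galactose from globosides, stood at 9.91, 9.57 and 9.33 in EAE and at 8.98, 8.72 and 8.93 in OVA. Its groups did not overlap and its difference of 0.72 ± 0.15 (SE) was the largest among the members that did not pass the test (limma adjusted p = 0.058). It passed with samples weighted by their number of mice (0.043), without EAE replicate 3 (0.044) and without OVA replicate 3 (0.040). Lamp2, which also guides substrates of chaperone-mediated autophagy, stood at 12.89, 12.92 and 12.95 in EAE and at 12.65, 12.78 and 12.94 in OVA, and differed by 0.13 (95% interval from -0.09 to 0.34). Ids, iduronate sulfatase, stood at 12.25, 12.36 and 12.47 against 12.43, 12.48 and 12.57, with overlap.

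Most of the calls were lost in some settings with 1 sample left out. In those settings the differences were 0.42 to 0.51 for Hexa, 0.45 to 0.54 for Gusb, 0.46 to 0.63 for Naglu and 0.48 to 0.62 for Npc2. Leaving out a sample also makes a group smaller, and the part of this in the lost calls was not tested. Cd68 and Grn stayed past the threshold whichever of the 6 samples was left out, at limma adjusted p of at most 0.0475 and 0.0455. Gusb missed it without EAE replicate 1, 2 or 3 or OVA replicate 2 (0.0589 to 0.0993), and Hexa, Naglu and Npc2 missed it without any sample other than OVA replicate 3 (0.0577 to 0.197). Leaving out EAE replicate 1, 2 or 3 left 2, 2 and 3 members that rose, where 0.463%, 0.132% and 1.57% of all tested genes were called higher. Leaving out OVA replicate 1, 2 or 3 gave 3, 2 and 11 members, beside 0.545%, 0.165% and 4.68% of all tested genes. The 5 members added without OVA replicate 3 were Gla, Psap, Gm2a, Galns and Cd63. OVA replicate 3 was the highest OVA sample for 16 of the 33 genes, and for 7303 of all 18161 tested genes. Measured from the average of OVA replicates 1 and 2, the 33 genes in OVA replicate 3 had a median of 0.08. Marker lists of several cell types lay further from that average, in both directions. Medians were 0.91 for monocytes and macrophages, 0.75 for endothelium, 0.52 for pericytes and smooth muscle, 0.32 for general myeloid markers and 0.12 for T cells. They were -0.35 for oligodendrocytes, -0.35 for their precursors, -0.33 for neurons, -0.19 for astrocytes and -0.15 for homeostatic microglia. The part of these shifts in the calls was not tested.

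**Figure D3:**
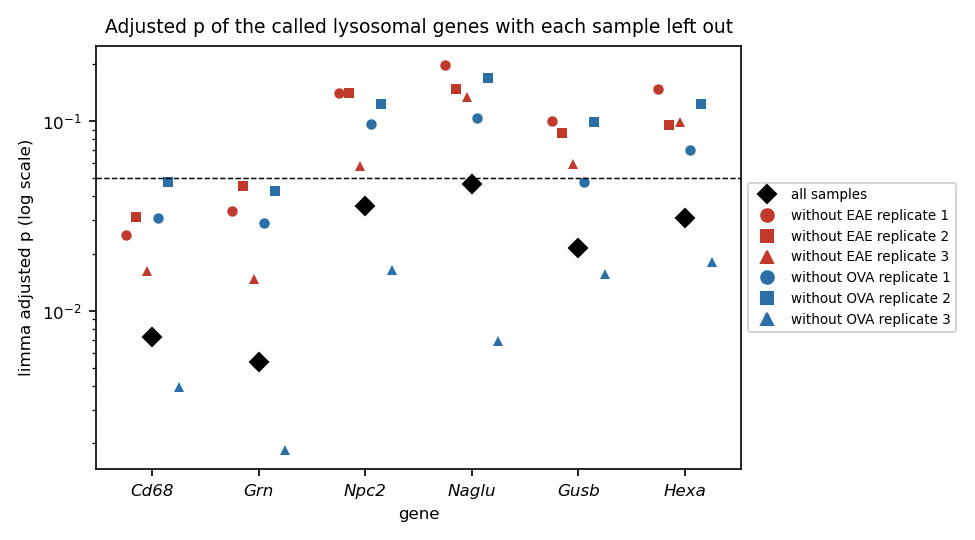
For the 6 lysosomal genes that passed the test, the vertical axis (log scale) gives the limma adjusted p with all samples (black diamond) and with each sample left out (red for an EAE sample, blue for an OVA sample); the dashed line marks 0.05. All symbols of Cd68 and Grn lie below the line, whereas most of those of Npc2, Naglu, Gusb and Hexa lie above it.

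Other genes of the lysosome were taken from wider lists. Over all tested genes, 1.72% were called higher and 0.666% lower. Of 38 other soluble enzymes and their sorting factors 2 rose and 0 fell, with a median difference of 0.11. They were the nuclease Pld3 (0.56 ± 0.11, SE; limma adjusted p = 0.041) and Scpep1, a serine carboxypeptidase (0.51 ± 0.08; 0.027). Of 30 other membrane proteins, 28 were tested and 4 rose, with a median of 0.10. Slc15a3, a transporter of peptides and histidine in phagocytes, stood at 10.79, 10.52 and 10.36 in EAE and at 8.98, 8.70 and 9.16 in OVA, a 3.05-fold rise (limma adjusted p = 0.0057). Slc11a1, which moves divalent metals out of phagosomes, rose 1.98-fold (0.0054) and Clcn7, the chloride-proton exchanger, 1.43-fold (0.029). The fourth was Atp13a2, a polyamine transporter, named after its values were seen, with a difference of 0.47. Beside these stand the cathepsins, the proteases of the lysosome, of which 6 of 12 rose with a median of 0.67, led by Ctss (2.82-fold), Ctsz (2.20-fold) and Ctsc (1.80-fold). The difference between these lists was not tested. These counts also changed with 1 sample left out. In those settings 0.132% to 4.68% of all tested genes were called higher, with the largest share without OVA replicate 3. Without EAE replicate 1, 2 or 3 or OVA replicate 1 or 2, 0 of the other soluble enzymes rose in each case, and without OVA replicate 3, 8 rose. The other membrane proteins that rose numbered 2 to 4 in the 6 settings and the cathepsins 2 to 8, with the highest count without OVA replicate 3 in both. Slc15a3, Slc11a1, Ctss and Ctsz passed in 6 of the 6 settings, Clcn7 and Ctsc in 2 and Pld3 and Scpep1 in 1.

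The V-ATPase is the proton pump that acidifies the lysosome. Of its 20 listed subunits 0 passed the limma threshold, with a median of 0.09. At an unadjusted p under 0.05, 6 were higher and 0 lower. Of all tested genes, 9.17% were higher and 7.15% lower at that level. Without OVA replicate 3, 2 passed, where 4.68% of all tested genes were called higher. The smallest p was that of Tcirg1, the pump subunit of osteoclasts and phagocytes, at 12.41, 12.09 and 12.12 in EAE and 11.80, 11.56 and 11.63 in OVA (limma adjusted p = 0.053). It passed under quantile normalization (0.042) and with samples weighted by mice (0.035). Of 21 MiT/TFE transcription factors and regulators of mTORC1 at the lysosome 0 passed, with 4 at an unadjusted p under 0.05, all higher (1 passed without OVA replicate 3), and Fnip2, a partner of folliculin, came closest (0.43 ± 0.09, SE; limma adjusted p = 0.054). Tfeb, the factor best known for switching on lysosomal genes, stood at 10.80, 10.72 and 10.87 in EAE and at 10.65, 10.50 and 10.41 in OVA, without overlap (difference 0.28 ± 0.08, SE; limma adjusted p = 0.16). Its relatives Tfe3, Mitf and Tfec differed by 0.09, 0.19 and 0.74, with limma adjusted p of 0.55, 0.30 and 0.16.

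**Figure D4:**
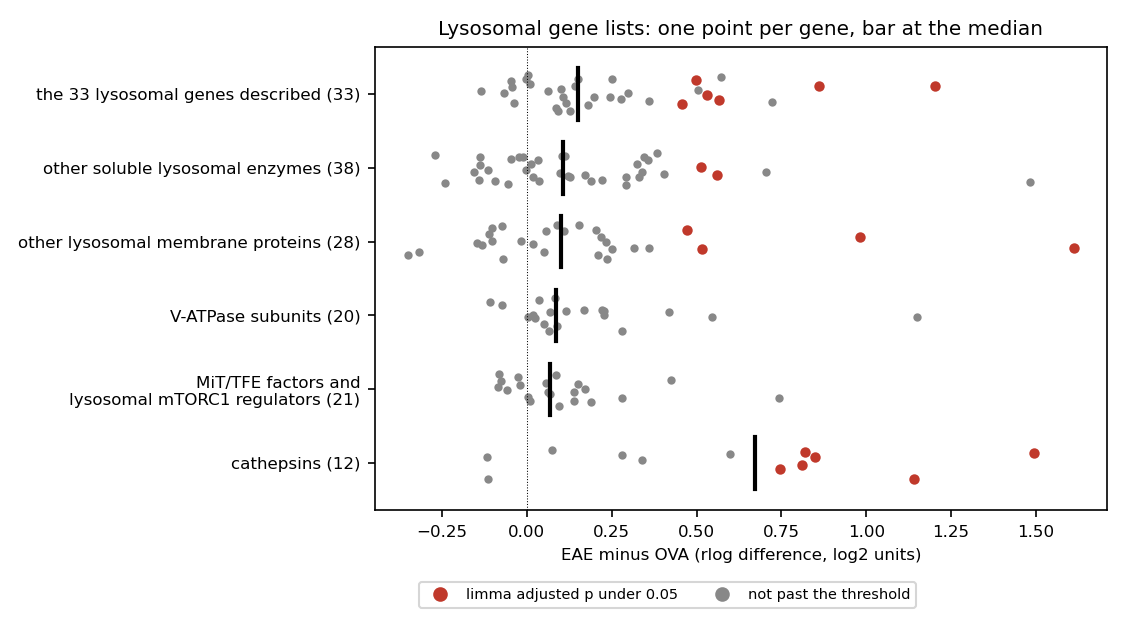
Each point is 1 tested gene of a lysosomal list, placed by its EAE minus OVA difference in rlog (log2) units, with vertical bars at list medians and red points for a limma adjusted p under 0.05; the number of genes tested stands after each name and the vertical scatter within a row has no meaning. The medians lie between 0.07 and 0.15 in 5 of the lists and at 0.67 for the cathepsins.

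Tfeb and its relatives bind the E-box CACGTG, in lysosomal genes often within a longer palindrome known as the CLEAR element, so the windows around the start sites were searched for it. RefSeq windows of 300 bases (250 before and 50 after a start site, build GRCm38.p6) were at hand for 30 of the 33 genes, 32 windows in all. CACGTG, which reads the same on both strands, occurred in 8 of the 32 windows (25%), and in 7.15% of all 32851 windows. The longer TCACGTGA, which contains it, occurred in 3 member windows (9.38%, against 0.974% of all), and the same with a G before and a C after it in 1, that of Cln3 (3.12%, against 0.326%). The ETS motif GAGGAAGT, searched on both strands as a form bound by the myeloid factor PU.1, was in 2 member windows, those of Gla and Gusb (6.25%, against 3.20% of all), and the STAT motif TTCNNNGAA in 2, those of Cln3 and Gm2a (6.25%, against 8.30%). A match is a description of these letters and no evidence of binding.

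The genes with CACGTG were Cln3, Gaa, Gla, Glb1, Lamp1, Mcoln1, Naglu and Sgsh, of which Naglu alone rose. Whether matches and differences go together was not tested, and the 2 genes shown next were picked by their matches and values. The upstream sequence of Lamp1, which has 4 matches, and that of Cd68, the gene with the largest increase and with 0 matches, are shown to set these side by side, 250 bases 5′ to 3′ up to the start site, with CACGTG in capitals:
Lamp1, chr8:13158911-13159160, plus strand: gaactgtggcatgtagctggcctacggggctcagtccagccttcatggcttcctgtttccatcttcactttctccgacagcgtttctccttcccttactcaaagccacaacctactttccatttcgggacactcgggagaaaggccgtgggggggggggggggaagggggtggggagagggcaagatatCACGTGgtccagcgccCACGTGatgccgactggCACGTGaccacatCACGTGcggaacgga
Cd68, chr11:69666171-69666420, minus strand: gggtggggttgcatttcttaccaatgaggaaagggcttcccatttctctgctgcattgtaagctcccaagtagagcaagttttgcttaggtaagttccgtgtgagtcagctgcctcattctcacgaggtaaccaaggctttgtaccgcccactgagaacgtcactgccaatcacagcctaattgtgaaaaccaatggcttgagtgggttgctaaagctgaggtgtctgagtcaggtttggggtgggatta
The 4 matches of Lamp1 begin 61, 45, 28 and 15 bases before its start site, and Lamp1 differed by 0.14 between the groups. The matches of Naglu, Gla and Mcoln1, and of the 2 of Cln3 the one nearer the start site, are shown with 12 bases on either side, to let the flanks be compared:
Naglu, chr11:101070009-101070038, plus strand: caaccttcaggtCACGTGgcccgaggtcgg
Gla, distal, chrX:134601215-134601244, minus strand: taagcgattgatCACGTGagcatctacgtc
Gla, proximal, chrX:134601182-134601211, minus strand: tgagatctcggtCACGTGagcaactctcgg
Mcoln1, distal, chr8:3500436-3500465, plus strand: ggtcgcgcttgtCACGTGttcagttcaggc
Mcoln1, proximal, chr8:3500462-3500491, plus strand: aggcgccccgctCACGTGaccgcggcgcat
Cln3, proximal, chr7:126583340-126583369, minus strand: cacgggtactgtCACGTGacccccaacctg
These matches begin 73 bases before the start site of the window in Naglu and 227 and 194 in Gla. In Mcoln1 they begin 71 and 45 bases before it, and in the Cln3 window 149 and 121. Of the 250 bases before that site, annotated exons cover 250 in Cln3, 197 in Gla (exons of Gla and Hnrnph2), 82 in Naglu and 62 in Mcoln1. The Naglu match, the proximal Mcoln1 match and the 2 matches of Cln3 lie inside the annotated genes. Cln3 has another window, with chr7:126585818-126586067 before its start site. That stretch borders the 5′ end of the annotated gene and holds 0 matches. Of these 4 genes Naglu rose, by 0.53, while Gla, Mcoln1 and Cln3 differed by 0.72, 0.12 and 0.11 without passing the test.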

How the data were processed

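Polyadenylated RNA of O4-captured mouse brain cells was sequenced from 3 EAE and 3 OVA samples with a TruSeq Stranded mRNA kit, as the labels' protocols state. Upstream tools listed without roles in the submitters' processing notes are STAR 2.6.1c, Subread 1.6.1, DESeq2 1.24.0, cutadapt 1.18 and bcl2fastq 2.17, with the build GRCm38. The authors deposited 1 log2 value per gene and sample, which the table's name marks as rlog values; the rlog shrinks differences of weakly expressed genes, and whether it used the groups and which annotation was counted are not given in the sources used here. Depth is unknown, so no counting error can be given.

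Identifiers were matched to symbols and positions in GENCODE M21 (55117 of 55298, 99.7%, of which 54550 with the same version number), taking the identifier with the highest mean where a symbol repeats. Genes with a mean rlog of at least 3 over all samples (18161) were fitted with limma 3.58.1 in R 4.3.3 (empirical Bayes with an intensity trend, EAE against OVA, equal sample weights). Errors are SE of a difference, and a fold is the rlog difference taken back from log2. 95% intervals are per gene and not adjusted for the number of genes. An exact permutation test of 3 against 3 samples has 0.1 as its smallest two-sided p, and p-values therefore depend on limma's pooling of the variance over genes. The fit was tested on simulated data. Replicate numbers follow deposition order and pair nothing.

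All 33 genes are named. Values in every sample are given for genes past the threshold, the smallest p per role and the X-linked genes; of each wider list up to 3 genes past the threshold, or the one with the smallest p, and up to 1 that changed in the opposite direction are named, and Tfeb, Tfe3, Mitf, Tfec and 8 markers of cell type and sex (Xist, Ddx3y, Ptprc, Aif1, P2ry12, Mbp, Mog and Sox10) whatever their values. Any other gene that this rule covers is not reported here. The members and lists were chosen with earlier results of these data known. Alternatives were other filters, no trend, robust moderation, median centring, quantile normalization, array weights, weights by number of mice, protein-coding genes only and leaving out each sample.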

Additional observations from a re-analysis of the deposited data

How the results depend on the processing

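Over 9 alternatives that kept all samples, the number of the 33 genes that rose was 6 in 7 of them, 7 with weights by number of mice and 15 with array quality weights, and 0 fell in any of the 15 alternatives. Array weights also gave 2858 genes higher and 2233 lower of all tested, against 312 and 121; their estimation stopped before it converged and put a weight of 8.85 on OVA replicate 2, so these counts are not relied on. With 1 sample left out, the number of members that rose ranged from 2 to 11, that of all genes higher from 24 to 850 and that of all genes lower from 1 to 346. The members' median of 0.15 ranged from 0.12 to 0.20 with 1 sample left out.

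Changes of sign occurred in members whose differences lay close to 0 and did not pass the threshold in any alternative. With array weights Sgsh was at 0.0833, Idua at 0.0836, Manba at 0.0604, Npc1 at -0.0854 and Scarb2 at -0.0553. With weights by mice Manba was at 0.0124, with median centring Gaa at -0.0133 and Tpp1 at -0.0183, and with quantile normalization Tpp1 at -0.0091. With 1 sample left out, the differences ranged from -0.154 to 0.0695 for Sgsh, -0.138 to 0.125 for Idua, -0.117 to 0.0042 for Arsb, -0.0919 to 0.117 for Manba, -0.0436 to 0.0522 for Gaa, -0.0342 to 0.192 for Npc1 and -0.0273 to 0.0409 for Tpp1. The cause was not tested. No paired analysis was possible because the labels give no number that pairs an EAE with an OVA sample. Precision is limited by 3 samples a group and by the unknown depth.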
